A study of Mus musculus with 6 samples.

Results

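RNA of 10 mouse heat shock and chaperone genes was followed in the tracheal mesenchyme, the tissue under the airway epithelium, with and without inhaled sulfur dioxide (SO2). The genes were Hspa1a, Hspa1b, Hspa5, Hspa8, Hsph1, Dnajb1, Hspb1, Hsp90aa1, Hspd1 and Hspe1. They were chosen by name, with earlier results of these data known. Every probe set that the platform annotation gives to exactly 1 of these symbols was taken. This came to 25 of the 45037 probe sets tested and to 10 of 18193 genes. All samples came from adult male C57Bl/6 mice. The 3 control samples were of normal trachea, and the 3 samples called 48 hpi were taken 48 h post injury by 4 h of breathing SO2 at 500 ppm. Each sample pooled 4 mice, so p-values measure the spread between pools and not between single mice. In both groups tracheal pieces lay in dispase at room temperature for 23 min before the epithelium was peeled off, and all that remained was used as mesenchyme. The control and the injured tissue therefore share that handling before RNA extraction. Each sample was hybridized to 1 Affymetrix mouse genome array, and all levels below are on the log2 scale of the RMA normalization, where 1 unit is a doubling. The number of arrays limits the precision.

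Heat shock proteins help other proteins fold, keep unfolded chains from clumping and pass damaged ones to degradation. Heat, toxic chemicals and the cutting or dissociation of tissue switch the inducible genes on within minutes through the transcription factor HSF1, which binds heat shock elements, alternating repeats of a short unit, in their promoters. HSP70 proteins bind unfolded chains with help from a J-domain partner such as Dnajb1 and a nucleotide exchange factor such as Hsph1, and pass many clients on to HSP90. Hspb1 is a small heat shock protein that holds unfolded proteins without using ATP. Hspa5, also called BiP, is the HSP70 of the endoplasmic reticulum (ER) and is induced by the unfolded protein response. Hspd1 and Hspe1 form the folding chamber of the mitochondria and lie head to head in the genome, sharing the stretch between their starts.

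The sequence upstream of these genes is shown first, because the members differ in how they are controlled and some are near copies of each other. It is from RefSeq, assembly GRCm38.p6, in windows of 300 bases that run from 250 before an annotated start of transcription to 50 after it. Such windows were given for 8 of the 10 members, 11 in all, and Hspa8 and Hsp90aa1 are not analysed here in this respect. The 250 bases before the start of Hspa1a (chr17:34972157-34972406, minus strand, 5′ to 3′) are printed with a heat shock element of 2 units, GAANNTTC, in capitals, as the pattern of an inducible HSP70 gene.

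Hspa1a: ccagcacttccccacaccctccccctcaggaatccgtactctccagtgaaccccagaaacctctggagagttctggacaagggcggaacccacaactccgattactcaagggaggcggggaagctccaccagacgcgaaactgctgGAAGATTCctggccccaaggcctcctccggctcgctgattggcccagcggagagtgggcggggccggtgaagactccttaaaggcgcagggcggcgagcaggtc

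The window of Hspa1b, the neighboring gene, differed from it at 4 of 300 bases, of which 3 lay before the start, at -207, -204 and -2 counted from the start site. The element at -104 to -97 was the same in both. The stretch that holds the first pair of differences is shown for both genes, with the differing bases in capitals, at chr17:34972348-34972375 for Hspa1a and chr17:34959430-34959457 for Hspa1b, both on the minus strand.
Hspa1a: atccgtactctcCagTgaaccccagaaa
Hspa1b: atccgtactctcTagCgaaccccagaaa

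For Hspa5 the same 250 bases are shown (chr2:34771840-34772089, plus strand) as the contrast, an HSP70 gene with no heat shock element in its window. Capitals mark an ER stress element, CCAAT and CCACG with 9 bases between them, at -65 to -47.
Hspa5: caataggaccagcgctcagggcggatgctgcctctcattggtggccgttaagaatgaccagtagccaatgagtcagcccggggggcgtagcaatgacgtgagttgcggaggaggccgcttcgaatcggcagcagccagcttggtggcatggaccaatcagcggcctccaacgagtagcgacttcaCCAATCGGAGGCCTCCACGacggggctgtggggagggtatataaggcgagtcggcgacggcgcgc

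Short stretches show elements that lie before the start in other members, again in capitals. Hsph1 is at chr5:149636356-149636375 on the minus strand, both Hspb1 stretches are on the plus strand at chr5:135887796-135887815 and chr5:135887816-135887835, and the Hspe1 stretch is on the plus strand at chr1:55088053-55088082. The 3-unit element of Hsph1 lies after the start, at 37 to 49 of its first window, and is not printed. The longer run of capitals in Hspe1 holds overlapping elements of 3 units each.
Hsph1: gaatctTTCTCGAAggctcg
Hspb1, first: acaagaGAAGTTTCcagatg
Hspb1, second: ggggcaGAACCTTCctggcc
Hspe1: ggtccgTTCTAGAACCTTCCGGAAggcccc

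The last of these stretches served both mitochondrial genes. Read on the other strand it was part of the window of the second annotated start of Hspd1, which lay 216 bases from the start of Hspe1, and it sat at -150 to -121 there and at -95 to -66 in Hspe1. The window of the first Hspd1 start held no element.

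Motifs were searched on both strands by their letters. A 2-unit element, GAANNTTC or TTCNNGAA, was in 7 of the 11 member windows and in 6 of the 8 genes, against 15.1% of 32851 windows of all genes. A 3-unit element, alternating GAA and TTC with 2 bases between neighbors, was in 4 windows of 3 genes, Hsph1, Hspd1 and Hspe1, against 0.603% of all windows, and every 3-unit element also counts as a 2-unit one. The ER stress element was in 0.119% of all windows and, of the members, in that of Hspa5. The letters TATAAA were in 13.6% of all windows and in 0 of the 11. Neither window of Dnajb1 held any of these motifs. The map of motif matches shows that the matches of Hspa1a and Hspa1b coincide, and that those of Hspb1, Hspd1 and Hspe1 all lie before the start, while Hsph1 also has matches after it. A match describes letters in the window and not a bound factor.

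**Figure D1:**
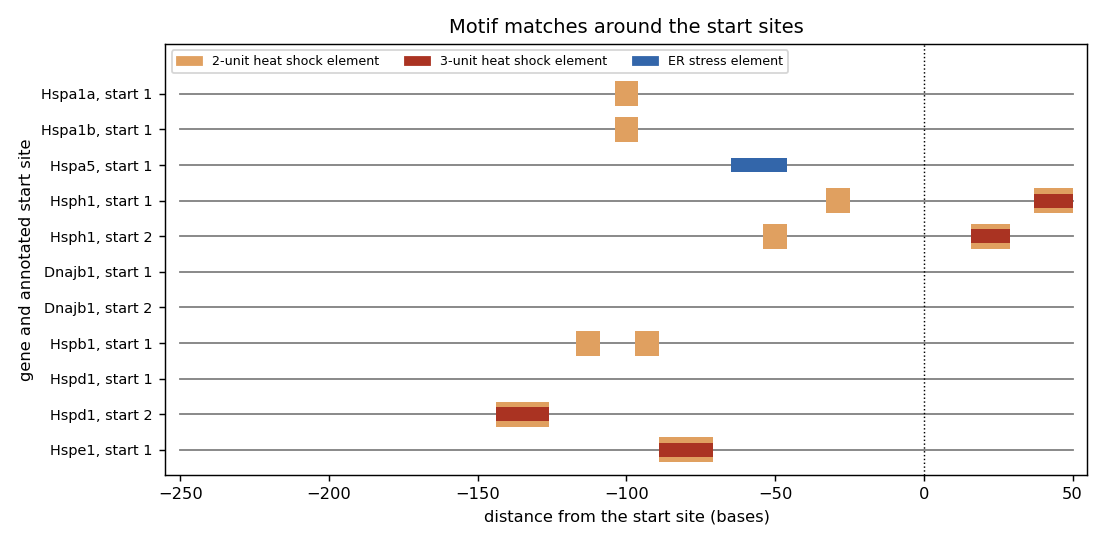
Positions of motif matches in the 11 promoter windows of 8 genes; the horizontal axis is the distance from the annotated start site in bases, and each row is a start site. Pale blocks are 2-unit heat shock elements, dark red blocks are 3-unit ones and the blue block is the ER stress element of Hspa5, and the single 2-unit blocks of Hspa1a and Hspa1b stand at the same place, from -104 to -97.

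At 48 hpi the mean levels of the inducible HSP70 genes Hspa1a and Hspa1b were lower than in the controls. Only Hspa1b passed limma's test, and its call held in 1 of the 6 fits that each left out 1 pool. The log2 fold changes of the other 8 members ran from -0.52 to 0.36 in their brightest probe sets. Of the 10 genes, 1 fell (Hspa1b) and 0 rose in limma's test at adjusted p 0.05, where a gene is represented by its probe set with the highest mean. Of all 18193 genes, 1.24% fell and 4.97% rose. At an unadjusted p under 0.05, 2 members were lower and 1 was higher, where 9.29% of all genes were lower and 14.6% higher. The labels state no pairing, and samples of the same replicate number were taken as pairs from the data. With that number as a block in the fit 2 members fell, Hspa1a and Hspa1b, and 0 rose, against 4.64% and 8.77% of all genes. The median log2 fold change of the 10 members was -0.11 (0.02 with the Actb covariate described below), and that of all genes was -0.01.

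Hspa1b encodes an inducible cytosolic HSP70. Its brightest probe set, 1452318_a_at, read 13.18, 12.62 and 12.59 in control replicates 1, 2 and 3 and 11.75, 12.06 and 11.51 in 48 hpi replicates 1, 2 and 3. Every injured pool lay below every control pool, and control replicate 1 stood highest. The mean was 12.80 ± 0.33 in the controls and 11.78 ± 0.28 at 48 hpi (SD, n = 3), 2.03-fold lower. The log2 fold change had a 95% interval of -1.49 to -0.55 and an adjusted p of 0.0378 in limma. A further pair of probe sets for Hspa1b gave -1.15 ± 0.25 (1427127_x_at, SE, adjusted p = 0.0503) and -1.32 ± 0.29 (1427126_at, SE, adjusted p = 0.0528) in limma, and neither passed there. With the replicate block all 3 probe sets fell, with adjusted p of 0.0125, 0.00706 and 0.00780.

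Hspa1a, the neighboring gene for a nearly identical protein, has 1 probe set, 1452388_at, which was at 12.02, 11.32 and 10.86 in the controls and at 10.34, 10.69 and 9.78 at 48 hpi. Its groups did not overlap either, though the lowest control and the highest injured pool were close, at 10.86 and 10.69. The difference was -1.13 ± 0.33 (SE, 95% interval -1.90 to -0.36), 2.19-fold lower, with an adjusted p of 0.115 in limma and of 0.0143 with the block. Since the 2 genes are nearly the same in sequence, the probe sets of one may also bind RNA of the other. Their 4 probe sets are not independent measurements. In genes at large, groups without overlap were common: 13.1% of all genes were lower in all 3 injured pools than in all 3 controls and 17.2% were higher, and of the members 2 were lower (Hspa1a and Hspa1b) and 1 was higher (Hspd1).

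Within replicate numbers, the injured pool was below its control in all 3 pairs for both genes. For Hspa1b the differences were -1.43, -0.56 and -1.08 in pairs 1, 2 and 3, and for Hspa1a they were -1.68, -0.63 and -1.09. Pair 1 gave the widest gap and pair 2 the narrowest in both. The call of Hspa1b rested on nearly every pool: it was lost on leaving out control replicate 1 (adjusted p = 0.0632), 2 (0.0805) or 3 (0.0786), or 48 hpi replicate 1 (0.0960) or 3 (0.143), and held without 48 hpi replicate 2 (0.0467). Over these 6 fits the log2 fold change ran from -1.16 to -0.83.

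**Figure D2:**
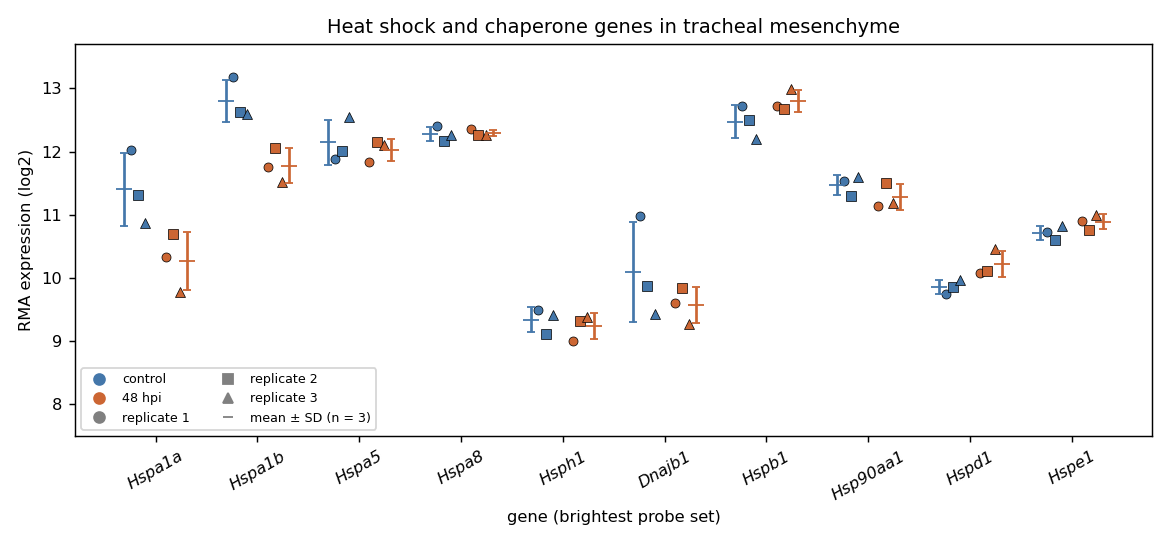
RMA expression (log2, vertical axis) of the brightest probe set of each of the 10 genes in the 3 control pools (blue) and the 3 pools at 48 hpi (orange), with the replicate number as the shape and the mean ± SD as bars. In Hspa1a and Hspa1b all orange points lie below all blue points, in Hspd1 they lie above, and in the other 7 genes the groups overlap; heights of different genes are not comparable.

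Some measures of the samples other than these genes differed between pools, and are given beside the HSP70 values. The Affymetrix control probe sets at the 5′ end of Actb read lower than those at the 3′ end by an amount that grows as RNA is broken or copied short. The 5′ minus 3′ difference was -1.74, -1.02 and -1.73 in control replicates 1, 2 and 3 and -1.07, -0.82 and -1.19 at 48 hpi. It was more negative in control replicates 1 and 3 than in any other pool. With it as a covariate the difference of Hspa1b was -0.99 and that of Hspa1a -1.25 (adjusted p = 0.212 and 0.324 in limma). Over all genes the covariate fit called 21 falls, against 226 without the covariate. The part of RNA quality in the HSP70 differences was not tested beyond that fit.

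Immediate early genes, which handling of tissue also induces within minutes, were the other such measure. The mean level of 14 of them was 11.11, 10.73 and 10.09 in the controls and 10.38, 10.78 and 9.85 at 48 hpi, so the groups overlapped. Of the 14, 0 passed limma's test in either direction and 2 were lower at an unadjusted p under 0.05, while with the block 3 fell (Jun, Egr1 and Ier2, named after their values were seen). Among all genes 9.29% were lower at that unadjusted p and 4.64% fell with the block. The median log2 fold change of the 14 was -0.46 (-0.84 with the Actb covariate), and 11 were below 0, as were 9683 of all 18193 genes. Fos and Dusp1, the brightest, differed by -0.23 ± 0.16 and -0.28 ± 0.20 (SE, adjusted p = 0.488 and 0.492 in limma). Control replicate 1 was the highest control in 11 of these genes (78.6%), in 6 of the 10 members and in 44.3% of all genes. In the injured group replicate 3 was the lowest pool in 13 of the 14 (92.9%), in 4 of the 10 members and in 32.5% of all genes. Whether tissue handling had a part in the lower HSP70 levels was not tested.

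The cell makeup of the pools also differed. For the counts that follow, 4.97% of all genes rose and 1.24% fell in limma's test, and 8.77% and 4.64% did with the block. At an unadjusted p under 0.05, 14.6% of all genes were higher and 9.29% lower. Macrophage markers rose in 5 of 5 genes, with mean levels of 6.69 to 6.94 in the controls and 8.54 to 9.03 at 48 hpi. Neutrophil markers rose in 3 of 4, from 4.44 to 5.92 in the controls to 7.27 to 8.17 at 48 hpi, and 1 of the 4, Cxcr2, was dim, which here means under the 40th percentile of all probe set means. Genes of dividing cells rose in 4 of 4, from a range of 5.01 to 5.70 to one of 8.66 to 9.17. Markers of fibroblasts had mean levels of 12.26 to 12.51 and 12.27 to 12.50 but went both ways: 1 of 6 fell (Dpt), 2 were lower at an unadjusted p under 0.05 (Dpt and Dcn), and with the block 1 rose, Col1a1, at 0.51 ± 0.25 (SE, adjusted p = 0.321 in limma and 0.0221 with the block). Chondrocyte markers, for the cartilage rings, lay at 11.53 to 11.80 and 11.03 to 11.40, with 0 of 6 past limma's test, 3 of 6 lower at an unadjusted p under 0.05 and 3 that fell with the block. Smooth muscle markers passed in 0 of 5 with 0 at an unadjusted p under 0.05. Their mean levels were 11.98, 12.36 and 10.99 in control replicates 1, 2 and 3 and 11.98, 12.38 and 11.90 at 48 hpi. Control replicate 3 thus stood below all other pools in these markers. Endothelial markers rose in 2 of 4 and in 3 of 4 with the block, and Schwann cell ones fell in 1 of 2. T and B cell markers passed in 0 of 3 with 0 at an unadjusted p under 0.05. Airway epithelium markers were present in both groups, at 7.25 to 8.05 and 7.02 to 8.01, with 0 of 8 past the test. Of these 1 was lower at an unadjusted p under 0.05 and fell with the block, the secretory cell gene Scgb1a1, at 13.46, 12.69 and 12.50 in the controls and 12.31, 9.90 and 8.72 at 48 hpi (adjusted p = 0.146 in limma and 0.0146 with the block). Of the 47 marker genes none but Cxcr2 and Ms4a1 was dim. In such bulk samples fewer cells of a type and less RNA per cell cannot be told apart, and the part of cell makeup in the member values was not tested.

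The constitutive HSP70 gene Hspa8 did not share the lower values. Its level was 12.40, 12.17 and 12.27 in the controls and 12.36, 12.26 and 12.26 at 48 hpi. The groups lay on top of each other, with a difference of 0.01 ± 0.09 (SE) and a 95% interval of -0.20 to 0.23, and the value of Hspa1b lies outside that interval. Of its 4 probe sets, 3 lay between -0.03 and 0.06. The remaining one, 1431182_at, was at 7.77, 8.19 and 8.07 in the controls and 7.27, 7.79 and 7.70 at 48 hpi. It gave -0.43 ± 0.17 (SE, adjusted p = 0.229 in limma) and fell with the block (adjusted p = 0.0260), with pair differences of -0.50, -0.41 and -0.37. The probe sets of Hspa8 thus disagreed, and which transcripts each one reads was not examined.

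Partners of HSP70 did not pass either. Dnajb1, the J-domain protein that is induced together with Hspa1b by heat, was at 10.98, 9.88 and 9.43 in the controls and at 9.61, 9.84 and 9.27 at 48 hpi. Control replicate 1 stood over 1 unit above the other two controls, and the groups overlapped. The difference was -0.52 ± 0.37 (SE, adjusted p = 0.498 in limma), and without control replicate 1 it was -0.08. The second Dnajb1 probe set read 10.22, 9.40 and 7.98 against 8.36, 9.09 and 7.53, a difference of -0.87 ± 0.60 (SE, adjusted p = 0.483 in limma). Every injured pool lay below the control of its own number, with differences of -1.37, -0.04 and -0.16 in the first probe set and of -1.86, -0.31 and -0.44 in the second, and neither passed with the block (adjusted p = 0.226 and 0.0986).

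Hsph1, the HSP110 that exchanges nucleotides on HSP70, was at 9.50, 9.12 and 9.41 in the controls and 9.01, 9.31 and 9.39 at 48 hpi. The groups overlapped throughout, and the difference of -0.11 ± 0.14 (SE, adjusted p = 0.741 in limma) turned positive with the Actb covariate, at 0.08. Its other probe set gave -0.13 ± 0.20 (SE, adjusted p = 0.772 in limma).

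Hsp90aa1, the inducible cytosolic HSP90, was at 11.53, 11.30 and 11.59 in the controls and 11.14, 11.51 and 11.19 at 48 hpi. The lowest control lay inside the range of the injured pools, and the difference was -0.19 ± 0.13 (SE, 95% interval -0.50 to 0.12, adjusted p = 0.484 in limma). The other 4 probe sets of the gene ran from -0.27 to 0.06, and 1 of them was dim.

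The small heat shock gene Hspb1 lay on the other side of 0. It was at 12.72, 12.50 and 12.20 in the controls and 12.72, 12.67 and 12.99 at 48 hpi, a difference of 0.32 ± 0.15 (SE, adjusted p = 0.315 in limma). The second probe set read 12.10, 11.85 and 11.55 against 12.13, 12.10 and 12.47, so its groups did not overlap, and gave 0.40 ± 0.16 (SE, adjusted p = 0.246 in limma). In both the gap came mostly from pair 3, at 0.79 and 0.92, and the pair 1 difference was near 0. Of all probe sets, 13.0% were higher in every injured pool than in every control.

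The mitochondrial chaperonin genes were higher in all 3 pairs, without passing the test. Hspd1, which encodes HSP60, was at 9.75, 9.86 and 9.97 in the controls and 10.09, 10.12 and 10.45 at 48 hpi. No injured pool overlapped the controls, and the difference of 0.36 ± 0.12 (SE, 95% interval 0.07 to 0.65) had an adjusted p of 0.178 in limma and of 0.0506 with the block. Hspe1, which encodes its lid HSP10, was at 10.72, 10.60 and 10.82 in the controls and 10.91, 10.76 and 11.00 at 48 hpi. These groups overlapped, but the pair differences were nearly equal, at 0.19, 0.16 and 0.18, and the adjusted p was 0.410 in limma and 0.229 with the block. The other Hspe1 probe set gave 0.29 ± 0.10 (SE, adjusted p = 0.171 in limma), with no overlap.

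Hspa5, the ER member, was at 11.88, 12.01 and 12.55 in the controls and 11.83, 12.15 and 12.10 at 48 hpi. Control replicate 3 was the highest of the 6, and the difference was -0.12 ± 0.19 (SE, 95% interval -0.56 to 0.32, adjusted p = 0.782 in limma). Its other probe sets gave -0.06 and -0.02.

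Over all 25 probe sets, 1 fell and 0 rose in limma's test, where 0.846% of all probe sets fell and 3.49% rose. With the block 5 fell (3 of Hspa1b, 1 of Hspa1a and 1 of Hspa8) and 0 rose, against 4.51% and 6.43%. Only 1 of the 25 was dim. The plot of probe set changes shows the 4 probe sets of Hspa1a and Hspa1b furthest to the left, from -1.32 to -1.02. Dnajb1 probe set 1416756_at lies next to them at -0.87, and its wide interval, from -2.27 to 0.53, covers all 4 values.

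**Figure D3:**
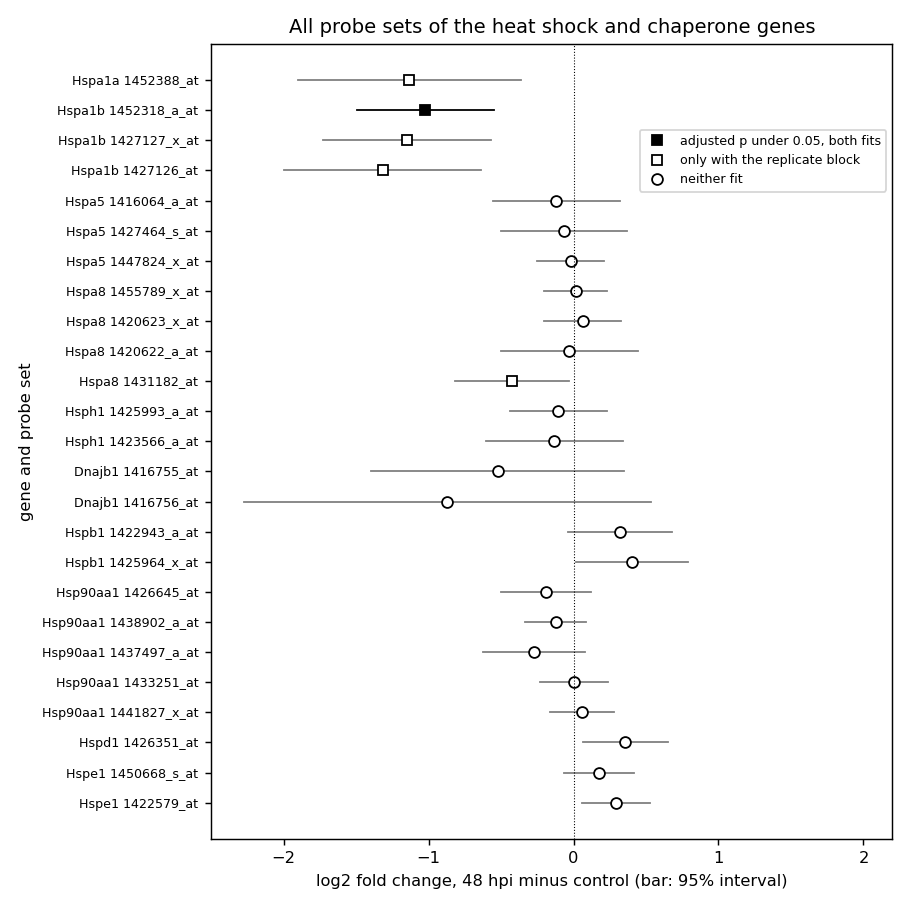
Log2 fold change (48 hpi minus control, horizontal axis) of each of the 25 probe sets with its 95% interval; the filled square passed limma's adjusted p of 0.05 with and without the replicate block, open squares only with the block, and circles neither. The 4 Hspa1a and Hspa1b probe sets lie between -1.32 and -1.02, with no interval reaching 0.

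**Figure D4:**
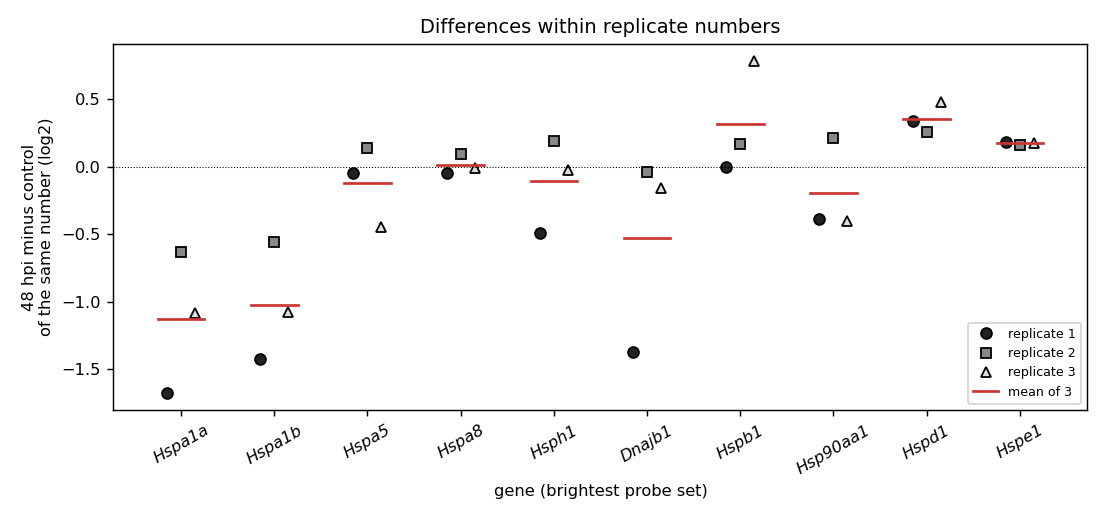
Difference between the 48 hpi pool and the control pool of the same replicate number (log2, vertical axis) for the brightest probe set of each gene, with the mean of the 3 pairs as a red line. Hspa1a, Hspa1b and Dnajb1 are below 0 in all 3 pairs, widest in replicate 1, and Hspd1 and Hspe1 are above 0 in all 3.

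Genes whose profile over the 6 pools lay nearest to that of Hspa1b, by the root mean square difference of log2 values each centered on its own mean, were Camk2n1 (0.190), Qpct (0.190), Smim5 (0.191), Cldn11 (0.191) and Gprasp2 (0.192). Camk2n1 encodes an inhibitor of CaM kinase II, Qpct an enzyme that closes the amino end of peptides into a ring, and Cldn11 a tight junction protein. Smim5 did not pass in limma and fell with the block (adjusted p = 0.0501 and 0.0109). Hspa1a was 13th in this order (0.211) and Dnajb1 481st (0.373). Hspd1 was far down, in place 16546 (0.779). This likeness is a description over 6 arrays, and a gene with a similar difference between groups comes out near by construction.

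The rest of the chaperone system was followed through lists of genes by role, apart from the immediate early genes. Of 84 genes 81 were measured. In limma's test 1 rose and 0 fell, where 4.97% and 1.24% of all genes did. With the block 4 rose and 2 fell, where 8.77% and 4.64% of all genes did. At an unadjusted p under 0.05, 19 were higher and 5 lower, beside 14.6% and 9.29% of all genes. The same shares of all genes stand beside the counts of each list below. The median log2 fold change was 0.10, with 55 genes above 0 and 26 below it (52 and 29 after another round of quantile normalization, 56 and 25 with arrays centered on their medians), beside -0.01 for all genes. Of all 18193 genes, 8510 lay above 0 and 9683 below it.

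Among the HSF1 genes, 5 of 6 were measured, without Hsf1 itself, which is not analysed here, and 0 passed. Hsbp1, which binds and restrains HSF1, and Cdc37, which brings kinases to HSP90, differed by 0.01 ± 0.09 and 0.10 ± 0.10 (SE, adjusted p = 0.960 and 0.639 in limma). The first of these turned negative after another round of quantile normalization, at -0.03, and both did with the Actb covariate. At an unadjusted p under 0.05, 1 gene of this list was higher, Fkbp5, a co-chaperone of HSP90 and of the glucocorticoid receptor, at 0.70 ± 0.19 (SE, adjusted p = 0.0967 in limma and 0.0680 with the block), and it is named after its value was seen. The mean of its 3 probe sets gave 0.29, and its differences in pairs 1, 2 and 3 were 1.13, 0.05 and 0.93. Fkbp5 is also in the list of HSP90 genes, of which 8 of 10 were measured, 0 passed, 2 were higher at an unadjusted p under 0.05 and all 8 lay above 0 (also under both other scalings, but 6 of 8 with probe set means or with the Actb covariate). There Hsp90b1, the HSP90 of the ER, and Ahsa1, which stimulates the ATPase of HSP90, differed by 0.01 ± 0.19 and 0.07 ± 0.16 (SE, adjusted p = 0.987 and 0.846 in limma). Hsp90ab1 and Ptges3 are not analysed here.

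Relatives of HSP70 and HSP110 numbered 9, with 0 past limma's test and 3 higher and 1 lower at an unadjusted p under 0.05. With the block Hspa4, another HSP110, rose, and Hspa12a, a distant relative named after its value was seen, fell. Hspa4 was at 9.05, 9.05 and 8.94 in the controls and 9.38, 9.38 and 9.75 at 48 hpi, with no overlap and a difference of 0.49 ± 0.12 (SE, adjusted p = 0.0759 in limma and 0.0466 with the block). These are values of 1 of its 4 probe sets, and the mean of the 4 gave 0.01 (adjusted p = 0.949 in limma). Hspa12a differed by -0.42 ± 0.11 (SE, adjusted p = 0.0425 with the block), and by -0.20 in the mean of its 4 probe sets. Hspa9, the mitochondrial HSP70, gave 0.11 ± 0.11 (SE, adjusted p = 0.645 in limma).

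HSP70 co-chaperones numbered 16, split evenly at 8 above and 8 below 0, with 0 past limma's test and 4 higher and 2 lower at an unadjusted p under 0.05. St13, which stabilizes HSP70 with bound client, gave -0.23 ± 0.08, and Dnaja2, a J-domain protein, gave 0.23 ± 0.08 (SE, adjusted p = 0.203 and 0.190 in limma). With the block 1 fell, Dnaja4, at -0.38 ± 0.18 (SE, adjusted p = 0.300 in limma and 0.0450 with the block), named after its value was seen. Small heat shock genes numbered 7, and 0 passed with 0 at an unadjusted p under 0.05. Of these Cryab and Hspb8 differed by 0.01 ± 0.13 and 0.15 ± 0.18 (SE, adjusted p = 0.982 and 0.698 in limma).

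In the ER, 17 chaperones and folding enzymes were measured, 0 passed limma's test and 1 was higher at an unadjusted p under 0.05. The collagen chaperone Serpinh1 differed by -0.05 ± 0.19 and the lectin chaperone Calr by 0.15 ± 0.16 (SE, adjusted p = 0.926 and 0.676 in limma). Of 9 genes listed for the unfolded protein response 1 rose, Edem1, which takes misfolded glycoproteins out of the folding cycle. Edem1 was at 8.28, 8.32 and 8.42 in the controls and 8.76, 8.82 and 8.98 at 48 hpi. The groups lay well apart, and the difference was 0.51 ± 0.09 (SE, 1.43-fold, adjusted p = 0.0297 in limma), but leaving out any 1 of the 6 pools ended the call (adjusted p = 0.0595 to 0.117). The other 8 genes of this list did not pass, 2 were lower at an unadjusted p under 0.05, and the median of the 9 was -0.15, but -0.0037 with probe set means and -0.02 with the Actb covariate.

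Mitochondrial chaperones and proteases numbered 9, with 0 past limma's test and 1 higher at an unadjusted p under 0.05. That was Grpel1, the exchange factor of Hspa9, at 0.29 ± 0.09 (SE, adjusted p = 0.135 in limma), and Timm44, which tethers Hspa9 to the import channel, gave 0.10 ± 0.09 (SE, adjusted p = 0.567 in limma). The 8 subunit genes of TRiC, the cytosolic chaperonin that folds actin and tubulin, were the most uniform list. All 8 had higher means at 48 hpi, by 0.26 to 0.53 with a median of 0.29, and stayed above 0 under both other scalings, with probe set means and with the Actb covariate. All 8 reached an unadjusted p under 0.05, 7 had groups without overlap, and 0 passed limma's test, beside 14.6% of all genes higher at that p, 17.2% higher without overlap and 4.97% that rose. With the block 2 rose, Tcp1 at 0.53 ± 0.12 and Cct5 at 0.39 ± 0.09 (SE, adjusted p = 0.0387 and 0.0411 with the block), named after their values were seen. Each has 1 probe set, so its difference was the same where genes were represented by probe set means. That fit adjusts over genes instead of probe sets, and both passed in it (adjusted p = 0.0357 and 0.0343 in limma). It adds no further measurement of either gene. The brightest of the list, Cct6a and Cct2, gave 0.26 ± 0.09 and 0.27 ± 0.08 (SE, adjusted p = 0.159 and 0.137 in limma). Genes of dividing cells were higher in the same pools, as given above, and their part in the TRiC values was not tested.

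**Figure D5:**
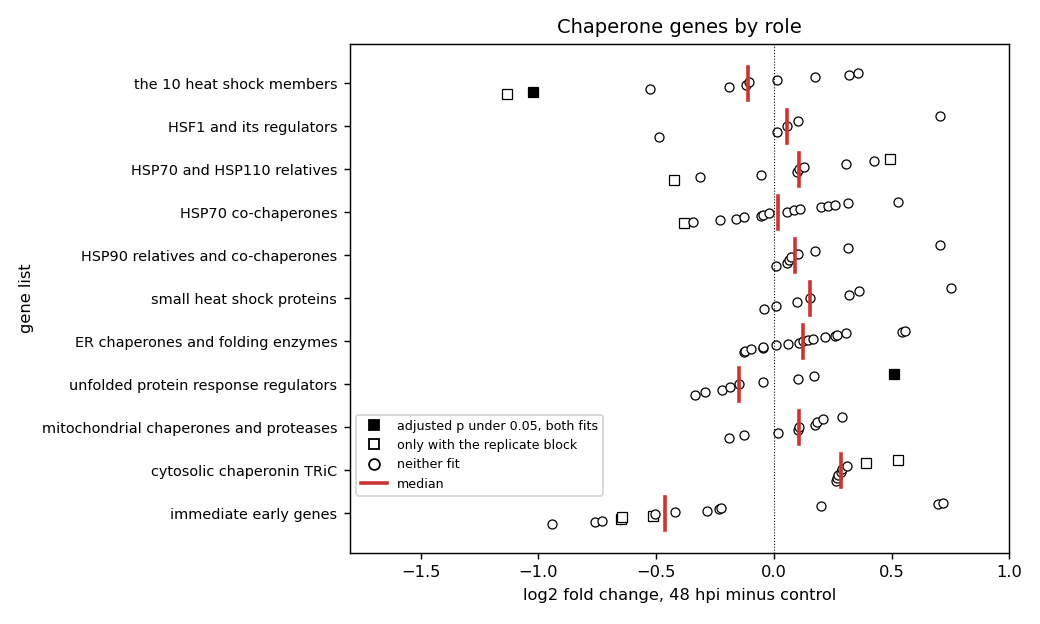
Log2 fold change (48 hpi minus control, horizontal axis) of each gene in the 10 members and in each list by role, with red bars at the list medians; filled squares passed limma's adjusted p of 0.05 with and without the replicate block, open squares only with the block, circles neither. Hspa1a and Hspa1b lie at -1.13 and -1.02 at the far left, and the 8 TRiC genes lie close together from 0.26 to 0.53.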

How the data were processed

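RNA of 3 control and 3 SO2-injured pools of tracheal mesenchyme was amplified and hybridized to 1 array each. The authors deposited log2 values, 1 per probe set, after the RMA procedure (background correction, quantile normalization, summary over probes). Partek 6.5 and Affymetrix Expression Console 1.1 are credited for this in the submitters' processing notes. RMA removes any shift shared by most genes and shrinks the folds of dim ones. Of 45101 probe sets 64 Affymetrix controls were left out. The platform annotation gave 1 symbol to 34945, several to 932 and none to 9160 of the others, and 34741 were matched to RefSeq genes of GRCm38.p6. Array medians differed by at most 0.09, and arrays correlated at 0.987 to 0.994 within groups and 0.974 to 0.989 between them.

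Groups were compared with limma 3.58.1 in R 4.3.3 (two-sided, lmFit then eBayes, with no factor but group, 4 residual degrees of freedom and 3.21 from the shared spread), with Benjamini-Hochberg adjustment over 45037 probe sets at adjusted p 0.05. The methods of the study name an analysis of variance over epithelium and mesenchyme; only mesenchyme was analysed here. The brightest probe set, by its mean over 6 arrays, stood for a gene. The fit was also run on simulated data. Pools were drawn independently there, without the likeness of same-numbered samples described below, so that run does not cover it. The members, lists and named genes were chosen with earlier results of these data known. Named were the members, for each list at most 2 genes that rose and 2 that fell or else the 2 brightest genes, and the 5 profiles nearest to Hspa1b. One listed symbol was updated, to Ero1a. An exact permutation test of 3 against 3 samples cannot go below p = 0.1 and was not used.

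Groups share replicate numbers in the labels. After removal of group means, deviations of same-numbered samples correlated across probe sets at 0.62, 0.36 and 0.34, and each sample matched its own number best, so numbers were taken as pairs. This comes from the data, since the labels name no shared day or batch. With the number as a block the fit has 2 residual degrees of freedom, and its values are given where it changed a call or a count. Alternatives were the block, leaving out samples, a filter on dim probe sets, other scalings, other spreads and probe set means, and, chosen after seeing the data, an Actb 5′ minus 3′ covariate and leaving out both samples numbered 2 or 3.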

Additional observations from a re-analysis of the deposited data

How the results depend on the processing

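The count of members that rose was 0 under every alternative run. Of member genes 1 fell, and this became 2 with the replicate block, 0 with an equal-variance test of each probe set alone, 0 with the Actb covariate and 0 to 1 on leaving out samples. Of member probe sets 1 fell, which became 5 with the block, 3 without dim probe sets, 2 after quantile normalization again, 3 with an intensity trend in the spread, 0 with the equal-variance test, 0 with the Actb covariate and 0 to 1 on leaving out samples. Of other chaperone genes 1 rose, which became 4 with the block, 3 with the mean of a gene's probe sets, 0 after quantile normalization again, 0 with the equal-variance test, 0 with the Actb covariate and 0 to 2 on leaving out samples, and 0 fell, which became 2 with the block. The block changed no other call of a gene or probe set named in the text than those stated there. The equal-variance test called 41 rises and 4 falls among all genes and the Actb covariate 318 and 21, against 904 and 226, so fewer calls were made everywhere under them. Over all genes the block gave 1596 rises and 845 falls. Leaving out samples gave 132 to 647 rises and 2 to 98 falls. Re-scaling moved the median of all genes by under 0.1.

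Hspa1b stayed negative throughout, from -1.25 to -0.82 on leaving out samples, with an adjusted p of 0.186 by the equal-variance test. With the mean of its probe sets Hspa4 gave 0.0112. Signs turned for small differences that did not pass in any fit, and the cause was not tested. With the mean of a gene's probe sets Hspa8 gave -0.094, Hsbp1 -0.00096, St13 0.0057, Ahsa1 -0.0051, Cryab -0.026 and Serpinh1 0.0132. With the Actb covariate Hsph1 gave 0.0774, Hsbp1 -0.11, Cdc37 -0.0125, Ahsa1 -0.15 and Hspb8 -0.0052. After quantile normalization again Hsbp1 gave -0.0333 and Cryab -0.0263. On leaving out samples Hspa5 ran from -0.25 to 0.0843, Hspa8 from -0.0409 to 0.0752, Hsph1 from -0.25 to 0.0858, Hsbp1 from -0.0382 to 0.0689, Hsp90b1 from -0.16 to 0.23, Ahsa1 from -0.10 to 0.19, Cryab from -0.12 to 0.11, Hspb8 from -0.0366 to 0.27 and Serpinh1 from -0.22 to 0.12. Of the 25 member probe sets 1 was dim, so low signal bears on that one.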
